A study of Mus musculus with 31 samples.

Results

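Tau fibrils were compared with vehicle in cultured primary microglia of Cgas+/+ mice, the resident immune cells of the brain. The comparison took 6 of the 31 samples of the series, 3 libraries of tau-treated cells against 3 libraries of vehicle-treated cells, and every gene that passed a filter on low counts, which left 13675 of the 54532 genes in the count table. All 18 microglia libraries, 6 groups of 3, shared 1 estimate of the spread. The series also holds bulk hippocampal tissue, which was not used here. The groups were Cgas+/+ (labelled wildtype) or Cgas-/- microglia (labelled Cgas KO) given vehicle, tau fibrils or DNA. The cells carried no other allele or agent in the labels. By the methods of the study, the microglia were grown from the cortices of newborn pups in mixed glial culture with granulocyte-macrophage colony-stimulating factor and shaken off, the fibrils were tau of the 0N4R isoform, the DNA was herring testis DNA (HT-DNA), an agonist of the cytosolic DNA sensor cGAS. The labels call the control vehicle. The dose and the time of exposure stand in the study's methods and not in the labels. The study calls its replicates biologically independent samples, but neither it nor the labels name separate cultures or animals for these libraries. The p-values thus measure the spread between the libraries of all 6 groups as deposited, part of which may be technical. The labels name primary microglia and no other cell type.

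Microglia read extracellular material through pattern recognition receptors. Receptors that signal through NF-kB switch on cytokines and chemokines such as interleukin 1 beta and tumour necrosis factor, while sensing of DNA in the cytosol by cGAS and STING leads to interferon beta, which acts through its receptor, JAK kinases and transcription factors to raise a large set of antiviral genes. Fibrillar tau is the main constituent of neurofibrillary tangles in Alzheimer disease and other tauopathies. The comparison addresses which of these programmes microglia turn on when they meet tau fibrils.

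The libraries held 17925495 to 21990131 counts with vehicle and 18834749 to 21452016 with tau, and 18835 to 19496 genes had a count. Levels below are counts scaled to a common library size (CPM, with TMM scaling), given for replicates 1, 2 and 3 in that order. The first principal component of the 6 libraries (54% of the variance) separated the treatments, at -19.63, -34.05 and -25.79 with vehicle and 28.72, 19.99 and 30.76 with tau. No pair of libraries of a group was alike within counting noise. Microglia and macrophage markers were abundant, with summed levels of 6814 to 6875 CPM with vehicle and 7413 to 7533 CPM with tau. None of the 12 passed the size threshold given below. Without a minimum size, 7 passed upward and 2 downward (edgeR, adjusted p under 0.05), and the median log2 fold change was 0.23. Csf1r, the receptor for colony-stimulating factor 1, stood at 976, 978 and 998 CPM and then 1273, 1228 and 1215 CPM (log2 fold change 0.33), and the fractalkine receptor gene Cx3cr1 at 348, 363 and 366 CPM and then 443, 448 and 430.4 CPM (0.29). Among markers of other cells, the oligodendrocyte list had the highest sum. Its 11 members, 8 of them tested, came to 640.1 to 662 CPM with vehicle and 586 to 613 CPM with tau. Most came from Cspg4, at 513, 537 and 526 CPM and then 456, 472 and 454 CPM. Astrocyte markers summed to 7.87 to 8.26 CPM with vehicle and 11 to 13.4 CPM with tau, and 2 of the 7 tested were raised. These were the glutamate transporter Slc1a2 (log2 2.57) and Aldh1l1 (1.03), whose call was lost without tau replicate 1 (0.85), vehicle replicate 2 (0.96) or vehicle replicate 3 (0.97). Of the endothelial markers, Kdr rose (1.09, and 0.96 without vehicle replicate 2, which ended the call). The summed level of all 7, 3 of them tested, was 106 to 125 CPM with vehicle and 142 to 177 CPM with tau. Both tested neuron markers were higher in every tau library than in any vehicle library (median log2 1.84), but neither was called. All 10 neuron markers, most of them untested, summed to 0.665 to 1.40 CPM with vehicle and 1.89 to 2.51 CPM with tau. Neutrophil markers summed to 30.0 to 33.1 CPM and 33.8 to 36.2 CPM, lymphocyte markers to at most 0.931 CPM and fibroblast and mural markers to at most 6.76 CPM, with no member called. The part of these cells in the results below was not tested. Fewer cells expressing a gene and less RNA per cell cannot be told apart in these bulk cultures.

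Cgas itself stood at 27.2, 18.8 and 23.5 CPM with vehicle and 35.3, 33 and 33.7 CPM with tau, a log2 difference of 0.56 that did not reach the size threshold. In Cgas-/- cells it was at 4.07, 5.47 and 5.23 CPM with vehicle and 7.45, 6.83 and 7.04 CPM with tau, below every Cgas+/+ library. The position of the deletion relative to the 3′ reads is not given in the sources used here, so the residual reads were not interpreted. Mapt, the mouse gene for tau, was under 1 CPM in all 6 libraries, and its level did not pass the test (log2 0.55, adjusted p = 0.436, edgeR).

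Tau raised 395 genes (2.89% of those tested) and lowered 72 (0.527%) in Cgas+/+ microglia. A gene was called when its adjusted p (edgeR quasi-likelihood test, Benjamini-Hochberg over all 13675 genes) was under 0.05 and its log2 fold change beyond 1 in either direction. The rises were also the larger changes. Their median log2 fold change was 1.51 against -1.24 for the falls, 114 genes rose beyond 4-fold against 8 that fell as far, and 35 rose beyond 8-fold against 2. Without a minimum size, 2166 of the 13675 genes passed upward and 1663 downward, the counts to set beside those of the lists below. The median of all tested genes was -0.01. The 3 tau libraries lay wholly above the 3 vehicle libraries in 389 of the 395 raised genes and wholly below in 70 of the 72 lowered genes. Over all tested genes that held for 21.7% upward and 19.8% downward. The 20 largest rises and 20 largest falls, from which many named genes were drawn, had to have separate groups. Protein-coding genes made up 344 of the rises and 54 of the falls, and long intergenic non-coding RNAs 5 and 7. Leaving out vehicle replicate 2 gave the fewest rises, 315.

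**Figure D1:**
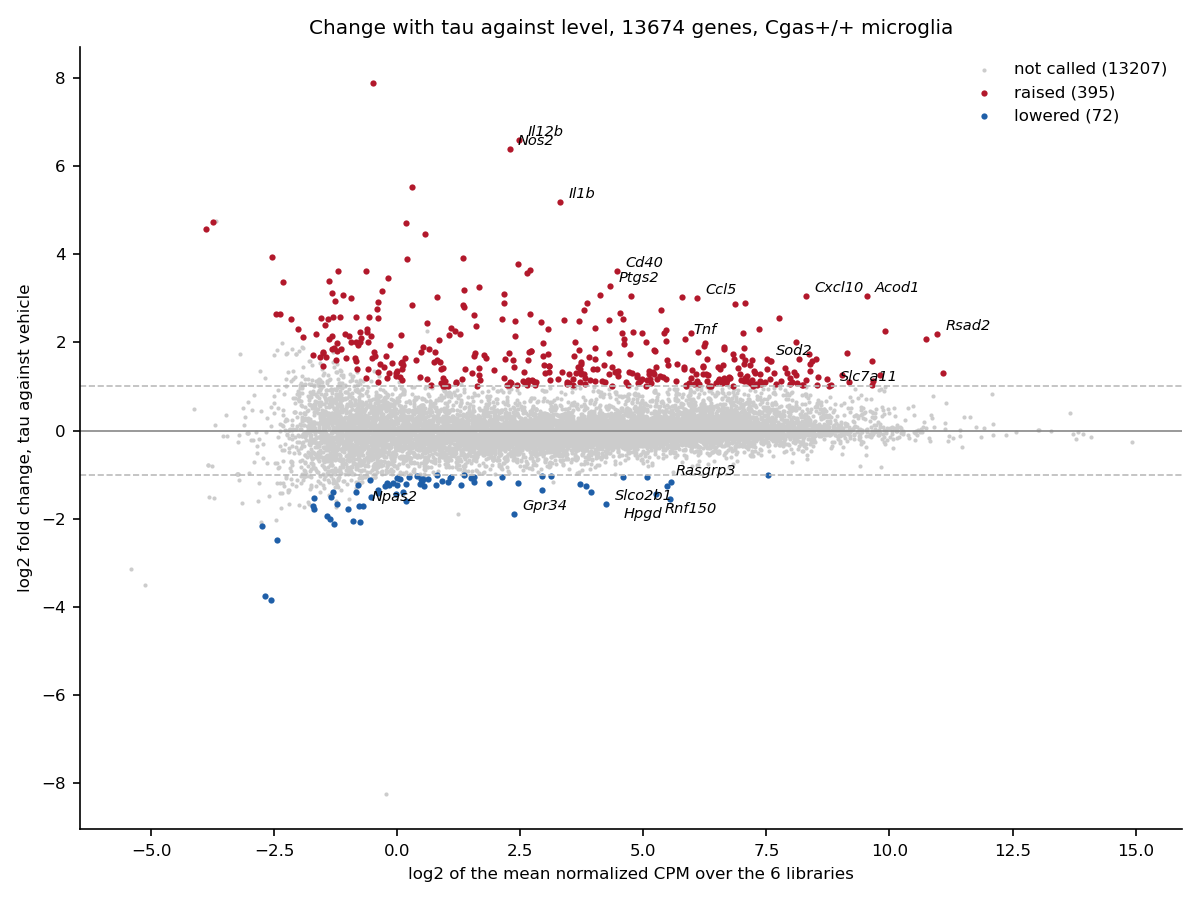
Log2 fold change of tau against vehicle (vertical axis) against the log2 of the mean CPM of the 6 Cgas+/+ libraries (horizontal axis), 1 point for each of 13674 genes, with raised genes in red, lowered genes in blue and dashed lines at a log2 of 1 in either direction. The rises reach well beyond a log2 of 4 for low and middling genes such as Il12b and Nos2, while the lowered genes lie mostly between the lower dashed line and a log2 of -2.

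Cytokine genes were among the largest rises. Of the 24 tested, 13 rose and none fell, and the median log2 fold change was 1.31 against -0.01 for all genes. Il12b, which encodes the p40 subunit shared by interleukins 12 and 23, was all but absent with vehicle, at 0, 0.216 and 0.108 CPM, and reached 10.5, 8.93 and 13.6 CPM with tau (log2 6.58 ± 0.38 SE, adjusted p = 5.07e-13). Interleukin 1 beta, the inflammatory cytokine released after caspase 1 cleavage, followed the same course. Its gene Il1b went from 0.532, 0.562 and 0.486 CPM to 20.2, 13.5 and 24.4 CPM (5.18 ± 0.28, adjusted p = 3.06e-14). Il6 had at most 2 reads in any vehicle library and 29 to 61 with tau, at least 17-fold higher when every vehicle library is set at 3 counts. Tumour necrosis factor, whose gene Tnf was picked here after its values were seen, was present beforehand at 24.2, 21.1 and 20.2 CPM and rose to 97.8, 76 and 105 CPM, which is 4.25-fold (2.09 ± 0.10, adjusted p = 6.82e-15). In all 4 the tau libraries lay far above the vehicle libraries, though separate groups were a condition for naming Il12b, Il1b and Il6. Among members of the tumour necrosis factor superfamily, the T cell costimulator Tnfsf15 rose by a log2 of 3.90, from 0.665, 0.13 and 0.108 CPM to 5.13, 3.64 and 5.44 CPM. Tnfsf10, which encodes the death receptor ligand TRAIL, rose by 2.23 and Il27 by 2.18. Of the 11 members that were not called, 3 passed downward without a minimum size.

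Of the 10 CXC chemokines tested, 6 rose and none fell (median log2 2.85). They form a neutrophil-attracting set, Cxcl1, Cxcl2 and Cxcl3, which signals through CXCR2, and a set that attracts activated T cells through CXCR3, Cxcl9, Cxcl10 and Cxcl11. The windows of 250 bases before the start of 3 of them are printed because each holds a short motif of a transcription factor of these pathways. They are from RefSeq (GRCm38.p6), at chr5:90890995-90891244 on the plus strand for Cxcl1, chr5:90785851-90786100 on the plus strand for Cxcl3 and chr5:92348890-92349139 on the minus strand for Cxcl10, each just upstream of the annotated start of the gene, and are written 5′ to 3′ on the strand of the gene. The capitals mark a match to the NF-kB core GGGANTTTC in Cxcl1 and Cxcl3 and, in Cxcl10, a match to the interferon-stimulated response element (ISRE) core GAAANNGAA followed by a match to the AP-1 motif TGANTCA. Only exact matches are marked. The Cxcl10 window also holds the stretches gggaaattcc and gggacttccc, which are near the NF-kB core but do not match it. The marks therefore do not show that Cxcl10 lacks NF-kB sites.
Cxcl1: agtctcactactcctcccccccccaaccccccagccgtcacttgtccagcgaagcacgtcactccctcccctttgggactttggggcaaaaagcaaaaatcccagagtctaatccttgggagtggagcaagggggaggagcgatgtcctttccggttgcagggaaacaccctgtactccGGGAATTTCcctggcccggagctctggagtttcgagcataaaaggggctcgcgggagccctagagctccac
Cxcl3: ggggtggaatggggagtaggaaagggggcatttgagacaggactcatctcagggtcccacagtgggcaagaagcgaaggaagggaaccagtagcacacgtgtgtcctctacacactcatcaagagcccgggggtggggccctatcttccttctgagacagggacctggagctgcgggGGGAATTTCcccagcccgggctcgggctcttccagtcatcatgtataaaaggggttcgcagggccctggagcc
Cxcl10: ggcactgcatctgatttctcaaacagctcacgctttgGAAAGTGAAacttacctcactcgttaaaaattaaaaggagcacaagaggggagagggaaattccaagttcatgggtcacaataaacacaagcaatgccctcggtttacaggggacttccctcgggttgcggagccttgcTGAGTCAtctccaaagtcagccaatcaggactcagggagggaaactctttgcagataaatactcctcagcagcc

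Cxcl1 had no read in any vehicle library and 22 to 37 reads with tau (2.02, 1.09 and 1.14 CPM), at least 10-fold higher. Cxcl2 went from 3.19, 3.94 and 4.05 CPM to 31.8, 25.3 and 36.8 CPM (log2 3.07 ± 0.16, adjusted p = 2.21e-14), and Cxcl3 from 1.51, 2.25 and 1.51 CPM to 11, 9.88 and 12.6 CPM (2.65 ± 0.20, adjusted p = 1.46e-11). The groups of Cxcl3 were separate, while Cxcl1 and Cxcl2 were named under a rule that required separate groups. Cxcl10, an interferon-inducible T cell attractant, was well expressed with vehicle but uneven, at 102, 33.5 and 67.6 CPM, and stood at 609, 447 and 634 CPM with tau, an 8.32-fold rise (3.06 ± 0.20, adjusted p = 1.99e-12). Its lowest library in each group was replicate 2. Cxcl9 rose by 4.71 from at most 0.177 CPM to 1.96, 2.27 and 2.33 CPM, and Cxcl11, with at most 3 reads in a vehicle library and 13 to 23 with tau, was at least 5.93-fold higher. Cxcl16 went from 258, 236 and 238 CPM to 414, 408 and 398 CPM (0.74), short of the size threshold.

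Of the 10 CC chemokines tested, 6 rose and none fell (median 1.49). Ccl5, which attracts T cells and monocytes, rose from 17.9, 13.9 and 13.8 CPM to 127, 109.8 and 129 CPM (3.0 ± 0.11, adjusted p = 8.99e-17). The monocyte attractants that signal through CCR2 rose together, Ccl7 by 2.89, Ccl12 by 2.50 and Ccl2 by 2.28, the last from 18.9, 8.78 and 17.5 CPM to 72.2, 57.6 and 87.5 CPM. Ccl3 and Ccl4, which attract monocytes and T cells, were already well expressed with vehicle. Ccl3 rose from 87.4, 59.4 and 74.8 CPM to 231, 184 and 254 CPM (1.59 ± 0.10) and Ccl4 from 60.6, 37.6 and 58.3 CPM to 149, 114 and 148 CPM (1.39 ± 0.11). Ccl9 stood at 218, 220.0 and 259 CPM and then 371, 397 and 425 CPM (0.78), which was not called.

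**Figure D2:**
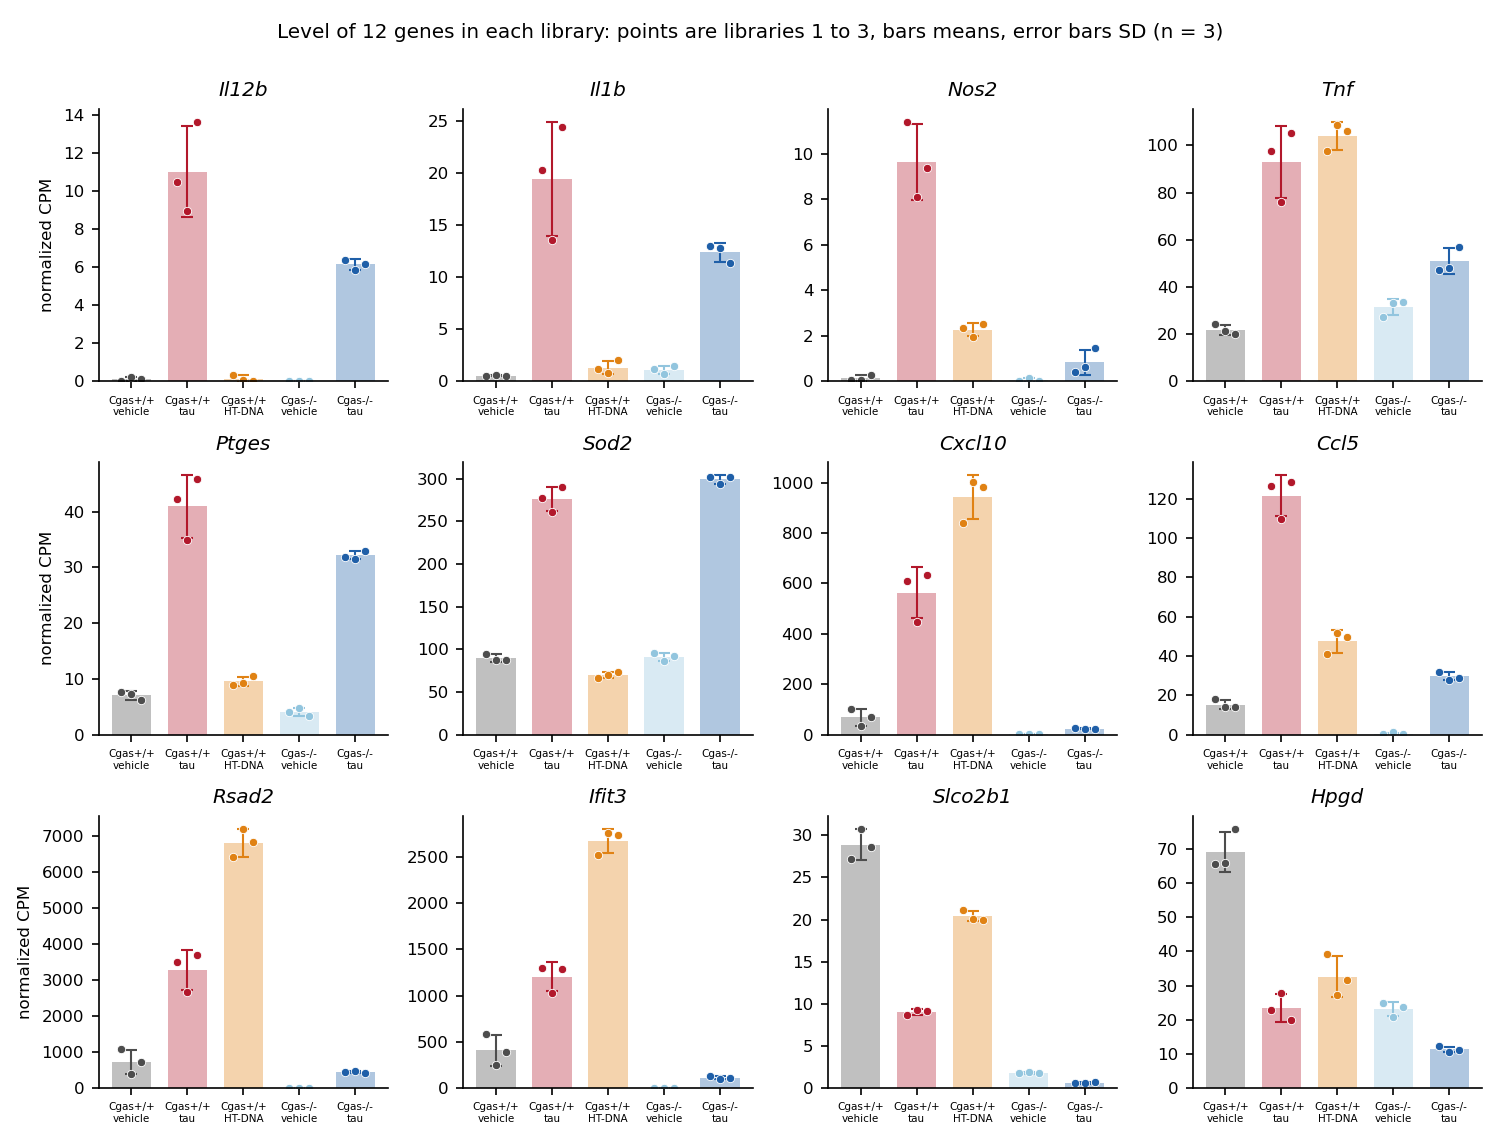
CPM of 12 genes in each library of 5 groups (points), with group means as bars and SD as error bars (n = 3), each panel on its own vertical axis from 0. Il12b, Il1b, Ptges and Sod2 are higher with tau than with vehicle in both genotypes, Rsad2 and Ifit3 are higher with HT-DNA than with tau in Cgas+/+ cells, and Slco2b1 and Hpgd are lower with tau than with vehicle.

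Genes of the NF-kB pathway moved mostly by less than 2-fold. Of 28 tested, 4 rose and none fell, yet 24 passed the adjusted p upward without a minimum size, and the median was 0.65. Traf1, an adaptor of tumour necrosis factor receptors and a known NF-kB target, was the exception in size, going from 0.931, 0.476 and 0.81 CPM to 12.5, 8.08 and 10 CPM (3.79 ± 0.27, adjusted p = 5.49e-12). The inhibitors Nfkbie (1.27) and Nfkbia (1.25) and the ubiquitin-binding protein gene Tnip3 (1.05, and 0.99 without vehicle replicate 1, which ended the call) rose more modestly. The subunit genes Nfkb1 and Nfkb2 stood at 142, 134 and 137 CPM and then 236, 227 and 244 CPM (0.78), and at 80.7, 83.2 and 86.9 CPM and then 163, 146 and 166 CPM (0.92). Their groups did not overlap, but both stayed under the size threshold.

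Among 26 Toll-like receptor pathway genes 3 rose and none fell (median 0.37). Tlr2, the receptor for bacterial lipopeptides, rose from 195, 184 and 182 CPM to 488, 440.3 and 511 CPM (1.36 ± 0.06, adjusted p = 4.08e-16). The double-stranded RNA receptor gene Tlr3 rose by 1.44 and the inhibitory kinase gene Irak3 by 1.10. Among 18 inflammasome and necroptosis genes 3 rose and none fell (median 0.27). Nlrp3, the sensor of the inflammasome that cleaves pro-interleukin 1 beta, rose from 30.8, 32.7 and 31.1 CPM to 77.6, 55.4 and 74.6 CPM (1.13 ± 0.09, adjusted p = 5.67e-11). Casp4, which encodes the caspase that senses lipopolysaccharide in the cytosol, rose by 1.6, and Mlkl, the pore-forming effector of necroptosis, by 1.95. AP-1 and immediate early genes had 1 rise among 28 tested (median 0.16).

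Enzymes that make small inflammatory mediators were among the raised genes. Of the 28 tested genes of nitric oxide, itaconate and prostaglandin metabolism, 7 rose and 1 fell (median 0.39). Nos2, the inducible nitric oxide synthase, stood at 0.0443, 0.0433 and 0.27 CPM with vehicle and 11.4, 8.08 and 9.38 CPM with tau (6.38 ± 0.45, adjusted p = 6.39e-12). Acod1, the enzyme that makes itaconate, rose 8.31-fold from 218, 117 and 143 CPM to 1403, 1105 and 1468 CPM (3.05 ± 0.13, adjusted p = 3.96e-16). Transcripts of prostaglandin enzymes went both ways. The synthetic enzymes Ptgs2 (cyclooxygenase 2) rose from 4.79, 3.42 and 2.86 CPM to 35.8, 27.4 and 45.6 CPM (3.28 ± 0.19) and Ptges from 7.67, 7.27 and 6.15 CPM to 42.2, 34.8 and 45.8 CPM (2.53 ± 0.11). Hpgd, which inactivates prostaglandins, fell from 65.6, 66.1 and 76 CPM to 22.9, 27.8 and 19.8 CPM (-1.55 ± 0.11, adjusted p = 2.56e-12). The groups were separate in all 3, which was a condition for naming Ptgs2 and Hpgd among the largest changes.

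Genes of oxidative stress, metal and iron handling moved broadly but little. Of 29 tested, 2 rose and none fell, 19 passed upward without a minimum size, and the median was 0.48. Sod2, the mitochondrial superoxide dismutase, rose from 94.6, 87 and 87.7 CPM to 277, 261 and 289.8 CPM (1.62 ± 0.06, adjusted p = 1.53e-17). Slc7a11, the cystine importer that feeds glutathione synthesis, rose from 304, 298 and 283 CPM to 584, 592 and 640.1 CPM (1.04 ± 0.04), and its log2 was 0.99 without tau replicate 3, which ended the call. Other genes known as targets of the antioxidant factor NRF2 stayed under the size threshold, Prdx1 at a log2 of 0.82, Sqstm1 at 0.78, Nqo1 at 0.87 and Hmox1 at 0.55. Of 27 glycolysis genes 1 rose, the hexose transporter Slc2a6 (1.37, adjusted p = 1.33e-15), and the median was 0.05.

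Interferon-stimulated antiviral genes formed the list with the most raised members. Of 67 tested, 51 rose and none fell, the median log2 was 1.18, and 64 passed upward without a minimum size. The most raised was Oasl1, an OAS-like regulator of the interferon response, from 14.5, 8.18 and 9.34 CPM to 74.8, 57.1 and 83.8 CPM (2.74 ± 0.14, adjusted p = 2.08e-14). Ms4a4c (2.50), Slfn4 (2.46), the nucleotide kinase gene Cmpk2 (2.27), Ifit1bl1 (2.20) and Rsad2, the antiviral enzyme viperin (2.19), followed. Rsad2 showed how uneven the vehicle libraries were, at 1067, 377 and 714 CPM, against 3488, 2656 and 3677 CPM with tau. Of the 18 GTPases of cell-autonomous immunity, which attack the vacuoles of intracellular pathogens, 15 rose and none fell (median 1.91). Gbp5 went from 52.5, 14.5 and 28.2 CPM to 240.0, 200.4 and 270.0 CPM (2.90 ± 0.20, adjusted p = 3.24e-12), Iigp1 from 9.31, 3.46 and 5.83 CPM to 40.7, 32.2 and 45.8 CPM (2.67 ± 0.17), and Gbp2 rose by 2.56. Many of these genes belong to families of near-identical copies, the Gbp, Oas, Ifi200, Slfn, Trim30 and Ifit1bl genes among them, and how reads were shared among copies is not given in the sources used here, so the values of single members are uncertain.

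The unevenness ran through the whole list. Vehicle replicate 2 held the lowest vehicle level of 58 of the 67 antiviral genes and of 17 of the 18 GTPases, and vehicle replicate 1 the highest of 61 and 17. Tau replicate 2 likewise held the lowest tau level of 63 and 15. The summed level of the antiviral list was 13270.2, 8099 and 10495 CPM with vehicle and 29197, 24462.5 and 29583 CPM with tau, so the groups stayed apart. The printed errors and p-values of these genes use a spread estimated over all 6 groups, so they may understate the unevenness with vehicle. Without vehicle replicate 2, 38 of the 67 antiviral genes (median 1.03) and 12 of the 18 GTPases (median 1.64) rose, while the counts of the chemokine, cytokine and NF-kB lists were the same as with it.

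Upstream of these genes, 10 of 23 tested DNA and RNA sensing genes rose and none fell (median 0.68). Ifi205, of the interferon-inducible p200 family, rose from 43.1, 17 and 24.2 CPM to 219, 168 and 231 CPM (2.87 ± 0.17, adjusted p = 2.22e-13). Ifih1, which encodes the RNA sensor MDA5, rose by 1.61, and Zbp1, a sensor of Z-form nucleic acids, by 1.51. Tmem173, which encodes STING, stood at 35.4, 34.4 and 34.5 CPM and then 36.3, 32.3 and 30.6 CPM (log2 -0.07, adjusted p = 0.461). Of 21 genes of the interferon receptors and the JAK-STAT pathway, 5 rose and none fell. Socs3, a feedback inhibitor of cytokine receptors, rose from 7.71, 5.8 and 7.5 CPM to 26.3, 20.7 and 29.6 CPM (1.87 ± 0.13), the interferon receptor inhibitor Usp18 by 1.59 and Stat2 by 1.02. The call of Stat2 was lost without tau replicate 1 or 3 (1.0 in both) or vehicle replicate 2 (0.85). Of 8 interferon regulatory factors, Irf7, the amplifier of type I interferon production, rose from 215, 134 and 170.3 CPM to 541, 453 and 544 CPM (1.57 ± 0.12) and Irf1 rose by 1.08, which became 0.91 and lost its call without vehicle replicate 2.

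The interferons themselves were barely detected. Of 20 interferon genes, 19 were at no more than 3 reads in all 6 libraries. Ifnb1, the 1 tested, stood at 0.443, 0 and 0.162 CPM with vehicle and 0.6, 0.0473 and 0.104 CPM with tau (log2 0.24 ± 0.83, adjusted p = 0.872), so the groups overlapped and no change was detectable at this depth.

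The promoters of the raised genes were compared with those of all tested genes for 4 motifs, counted on both strands in windows from 250 bases before to 50 after the start. Only exact matches were counted, so the shares leave out near forms of these motifs. RefSeq windows matched 283 of the raised, 45 of the lowered and 9966 of all tested genes. The ISRE core was in 30.4% of raised, 8.89% of lowered and 8.91% of all genes. The AP-1 motif was in 16.6%, 4.44% and 6.38%, the NF-kB core in 4.59%, 0% and 1.18%, and the interferon gamma activated site (GAS) TTCNNNGAA in 14.1%, 8.89% and 8.23%. Windows of raised genes were poorer in G and C, 53.4% against 60.6% over all genes, and the part of base composition in these shares was not tested. Matches of ISRE and GAS overlapped in 18 tested genes, those of other pairs in at most 5. By list, the ISRE core was in 28 of 54 antiviral genes and 9 of 10 GTPases, and the NF-kB core in 4 of 8 CXC chemokines. The bases before the start of Ifit3, picked here after its values were seen, and of Gbp5 are printed as examples with several matches, from chr19:34583279-34583528 and chr3:142496684-142496933 (RefSeq, GRCm38.p6, plus strand). In Ifit3 the capitals mark 3 ISRE cores and then an AP-1 match, and in Gbp5 a GAS, an NF-kB core, an ISRE core, an NF-kB core and a GAS, in that order and in either orientation.
Ifit3: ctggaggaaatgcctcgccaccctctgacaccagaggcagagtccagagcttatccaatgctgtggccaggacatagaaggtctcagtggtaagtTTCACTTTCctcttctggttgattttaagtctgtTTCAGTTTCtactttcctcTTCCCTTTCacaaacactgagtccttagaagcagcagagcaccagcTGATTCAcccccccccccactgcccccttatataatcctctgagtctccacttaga
Gbp5: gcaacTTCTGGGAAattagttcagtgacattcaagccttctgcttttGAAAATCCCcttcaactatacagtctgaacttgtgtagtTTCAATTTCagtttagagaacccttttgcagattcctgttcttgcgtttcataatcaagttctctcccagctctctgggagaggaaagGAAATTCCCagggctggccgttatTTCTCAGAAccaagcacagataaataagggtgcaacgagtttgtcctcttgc

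Ifit3, which encodes an antiviral protein that binds foreign RNA, rose from 582, 247 and 389 CPM to 1302, 1023 and 1283 CPM (1.57 ± 0.18, adjusted p = 5.00e-08). A motif match is a description of these windows and not a bound site.

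MHC class I presentation genes, which display peptides to CD8 T cells, rose by modest amounts. Of 25 class I presentation genes 7 rose and none fell, 22 passed upward without a minimum size, and the median was 0.80. The class I transactivator Nlrc5 rose from 119.6, 81.5 and 103 CPM to 277, 244 and 277 CPM (1.39 ± 0.09) and the peptide transporter Tap1 by 1.31, as did H2-Q7, a member of a family of similar copies. The abundant chains B2m (0.31) and H2-K1 (0.51) stayed under the size threshold. Of 10 class II presentation genes none was raised or lowered (median 0.07). Without a minimum size 2 passed upward (edgeR), beside 2166 of all 13675 tested genes. The classes were not tested against each other. Of 21 costimulatory and adhesion genes 8 rose and none fell. Cd40, the receptor for the T cell ligand CD154, rose 12.2-fold from 4.74, 2.16 and 3.13 CPM to 44, 34 and 44.9 CPM (3.61 ± 0.16, adjusted p = 5.98e-16). The activation marker Cd69 rose by 3.03, Slamf7 by 1.75, the death receptor Fas by 1.61 and Cd274, which encodes the checkpoint ligand PD-L1, by 1.51. Cd86 stood at 47.4, 44.6 and 41.2 CPM and then 67.3, 61.7 and 74.2 CPM (0.61).

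Surface receptors went both ways. Of 37 G protein-coupled receptors 7 rose and 1 fell. The formyl peptide receptors, which sense bacterial and mitochondrial peptides, rose most, Fpr2 from 1.42, 0.519 and 0.917 CPM to 10.8, 11.8 and 13.3 CPM (3.64 ± 0.24) and Fpr1 from 1.2, 0.779 and 0.917 CPM to 11.9, 9.97 and 12.8 CPM (3.57 ± 0.21). The adenosine receptor Adora2a rose by 2.04 and Gpr84, a receptor for medium-chain fatty acids, by 1.80. Of 29 Fc, lectin and scavenger receptors 5 rose and none fell, led by Clec4a1 (3.25), Clec4e, the receptor Mincle (1.91), and Olr1, a receptor for oxidized lipoprotein (1.44). Clec4e went from 37, 31.1 and 26.8 CPM to 124, 108 and 127 CPM, with separate groups. Complement C3 rose from 65, 52.9 and 53.2 CPM to 220.4, 181 and 225 CPM (1.87 ± 0.09, adjusted p = 1.33e-15), 1 of 2 raised among 17 complement genes, and 1 without tau replicate 2 or vehicle replicate 2. Of 33 matrix, protease and growth factor genes 7 rose and none fell, and 11 rose without tau replicate 2. They included Serpinb2 (3.03), the iron-binding lipocalin Lcn2 (1.69), the membrane protease Mmp14 (1.10) and the growth factor Ereg, which had at most 3 reads in a vehicle library and was at least 5.74-fold higher.

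**Figure D3:**
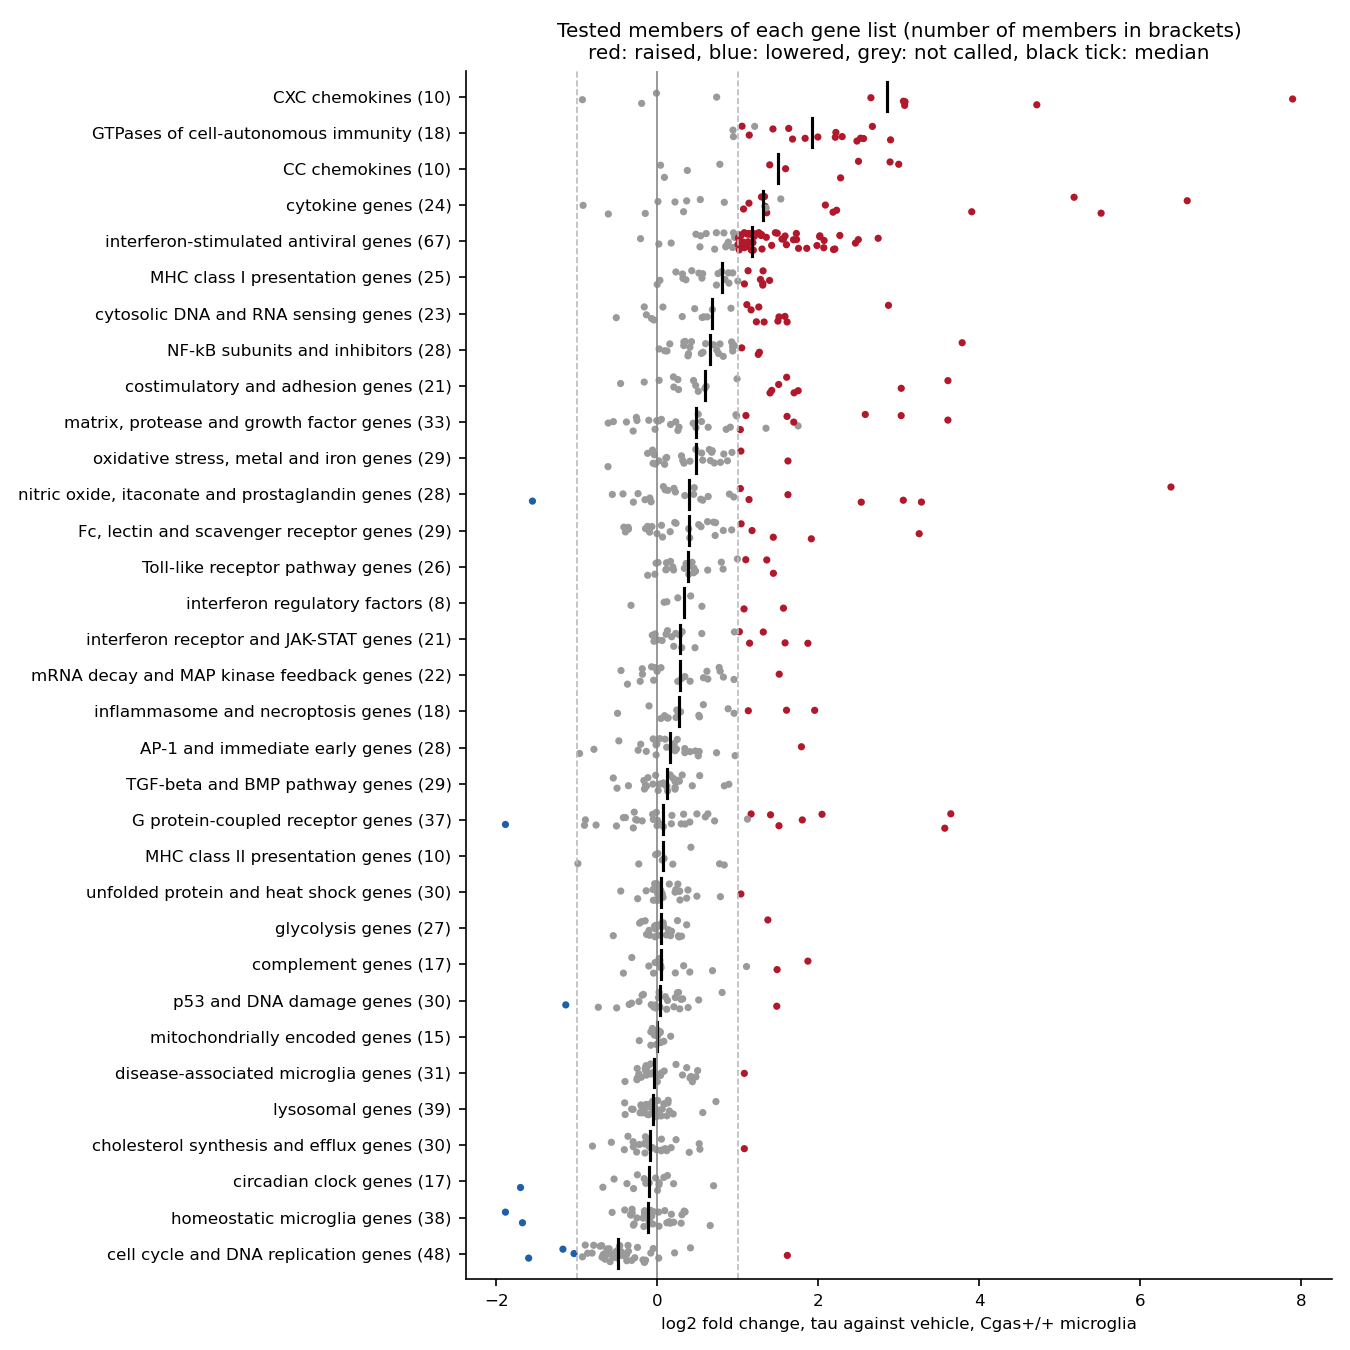
Log2 fold change of tau against vehicle (horizontal axis) for the tested members of each gene list (rows, ordered by median, number of members in brackets), with raised members in red, lowered in blue, others in grey and a black tick at the median. The CXC chemokine and GTPase lists have medians of 2.85 and 1.91, and the homeostatic and cell cycle lists lie below 0 at -0.12 and -0.49.

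The 72 falls were smaller, and the lists held 8 of them against 168 of the rises. The lists were chosen with earlier results of these data known, so these counts depend on that choice. Of 38 homeostatic microglia genes 2 fell and none rose, with 18 passing downward and 9 upward without a minimum size (median -0.12). Gpr34, a lysophosphatidylserine receptor of resting microglia, fell from 6.82, 10.6 and 7.23 CPM to 1.58, 2.84 and 2.18 CPM (-1.89 ± 0.19, adjusted p = 4.00e-09), and the organic anion transporter Slco2b1 from 27.2, 30.8 and 28.7 CPM to 8.62, 9.31 and 9.12 CPM (-1.68 ± 0.10, adjusted p = 1.21e-13). Tmem119, a defining microglial marker, stood at 17.5, 18 and 19.2 CPM and then 12.8, 13.2 and 10.9 CPM (-0.56), with separate groups but under the size threshold. Of 31 disease-associated microglia genes 1 rose, the cholesterol hydroxylase Ch25h (1.08, and 0.95 without vehicle replicate 2, which ended the call), and none fell (median -0.04). At any size 9 of the 31 passed upward and 14 downward (edgeR). Spp1, osteopontin, the abundant gene of that list, stood at 33879, 33462 and 34107 CPM and then 28056, 28962 and 28196 CPM (-0.25). No lysosomal gene of 39 and no mitochondrially encoded gene of 15 was raised or lowered, with 6 and 0 passing upward and 15 and 0 downward at any size (edgeR). By median, the remaining lists moved little. The mRNA decay and MAP kinase feedback list had 1 rise among 22 genes (median 0.28), cholesterol synthesis and efflux 1 among 30 (-0.10), unfolded protein and heat shock 1 among 30 (0.05), p53 and DNA damage 1 rise and 1 fall among 30 (0.03), and the circadian clock 1 fall among 17 (-0.10). At any size, 11 genes passed upward and 3 downward in the mRNA decay list, 7 and 5 in the cholesterol list. The counts were 9 and 2 for unfolded protein, 10 and 7 for p53 and 0 and 5 for the clock (edgeR). None of the 29 genes of the TGF-beta and BMP pathways was called (median 0.12), with 10 passing upward and 4 downward at any size (edgeR). Over all 13675 tested genes 2166 passed upward and 1663 downward. Leaving out vehicle replicate 2 removed the single rise of the cholesterol list, which is Ch25h, and of the unfolded protein list.

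Cell cycle and DNA replication genes leaned downward. Of 48 tested, 3 fell and 1 rose, 31 passed downward without a minimum size against 2 upward, and the median was -0.49. The nuclease gene Ankle1 fell from 1.77, 1.95 and 1.4 CPM to 0.6, 0.567 and 0.518 CPM (-1.60 ± 0.39, adjusted p = 2.28e-03), the G1 to S cyclin Ccne2 by 1.17 on the log2 scale and Uhrf1, which maintains DNA methylation at replication, by 1.04. Only Ankle1 kept its call without vehicle replicate 3, where Ccne2 was at -1.02 and Uhrf1 at -0.89, and Ccne2 (-0.91) was also lost without tau replicate 3 and Uhrf1 (-0.92) without tau replicate 2. Mki67, the proliferation marker, stood at 71.4, 64.8 and 74.5 CPM and then 45.8, 49.1 and 46 CPM (-0.58), and Rrm2, a subunit of ribonucleotide reductase, at -0.90. Ccnd2, a D-type cyclin, went the other way, from 2.39, 1.86 and 2.54 CPM to 7.15, 6 and 7.57 CPM (1.61 ± 0.16).

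Outside the lists, the ubiquitin ligase gene Rnf150 fell from 52.2, 59 and 56.8 CPM to 18.5, 24.1 and 19 CPM (-1.44 ± 0.08, adjusted p = 7.31e-14) and Rasgrp3, an activator of Ras, from 63.8, 64.6 and 59.7 CPM to 25.1, 26.6 and 27.4 CPM (-1.25 ± 0.07, adjusted p = 2.22e-13). The Nogo receptor homologue Rtn4rl1 fell by 1.39 on the log2 scale, the Wnt modulator Dkk2 by 1.25, Nrep by 1.22 and the acyl-CoA thioesterase Acot1 by 1.19. Among the clock genes, Npas2, the factor related to CLOCK, fell from 1.02, 0.865 and 0.971 CPM to 0.218, 0.378 and 0.259 CPM (-1.70 ± 0.39, adjusted p = 1.07e-03). At similarly low levels Pcp4l1 fell by 1.40, Bbs12 by 1.24 and Ticrr, which acts in the start of DNA replication, by 1.23. Among the 20 largest falls, Zfp286 lost its call without tau replicate 1 (-1.18), Sema4g (-0.94), Chst10 (-1.02) and Esco2 (-1.03) without tau replicate 3, Mutyh without tau replicate 1, tau replicate 3 or vehicle replicate 3 (-1.24 to -1.08), and Asb10 without any 1 library except vehicle replicate 2 (-1.49 to -1.36).

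Further large rises fell outside the lists. Zfp811, a zinc finger gene, stood at 0.0886, 0.216 and 0.054 CPM with vehicle and 3.16, 2.55 and 2.85 CPM with tau (4.46 ± 0.49, adjusted p = 2.18e-08). Mir155hg, the host transcript of the inflammatory microRNA miR-155, rose from 0.399, 0 and 0 CPM to 2.56, 1.65 and 2.23 CPM (3.89 ± 0.63, adjusted p = 1.64e-05). Heatr9 (3.61), Hdc, which makes histamine (3.45), Apol9a (3.17) and Olfr56 (3.11) also rose, Olfr56 from 1.24, 0.606 and 0.971 CPM to 8.08, 7.18 and 9.07 CPM.

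Tau was next set directly against HT-DNA in Cgas+/+ cells, a contrast that uses no vehicle library. Tau gave the higher level in 243 genes (1.78%) and the lower level in 204 (1.49%). Of the 395 genes that tau raised over vehicle, 60 were higher with tau, 50 were higher with HT-DNA and 285 were not called. Il12b, at 0.326, 0.0539 and 0 CPM with HT-DNA, was higher with tau by a log2 of 6.38 ± 0.39 (adjusted p = 1.08e-12), Cxcl3, at 0.435, 0.485 and 0.273 CPM, by 4.79 ± 0.27, and Il1b, at 1.14, 0.754 and 2.02 CPM, by 3.89 ± 0.25. Fpr1 was higher by 3.5, Traf1 by 2.46, Cxcl2 by 2.35, Ptges by 2.10, Nos2 by 2.08, Clec4e by 2.02, Sod2 by 1.99, Ptgs2 by 1.59, Ccl5 by 1.36 and C3 by 1.04. Zfp811 was higher by 6.08, with at most 0.0543 CPM in an HT-DNA library. Of the 29 oxidative stress, metal and iron genes 7 were higher with tau and none lower (median difference 0.40), among them Nqo1 (1.43), Sqstm1 (1.04) and Slc7a11 (1.03). The inflammatory lists went both ways. Of 24 cytokines 3 were higher and 3 lower with tau (median -0.34), and of 10 CXC chemokines 3 and 1 (-0.05). Of 10 CC chemokines 1 was higher and 4 lower (-0.30). Of 28 nitric oxide, itaconate and prostaglandin genes 4 were higher and 1 lower (0.18). Of 33 matrix, protease and growth factor genes 2 were higher and 7 lower (-0.11), and of 28 AP-1 and immediate early genes none and 4 (-0.38).

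None of the 67 antiviral genes was higher with tau and 9 were lower (median difference -0.51), and of the 18 GTPases 2 were lower (median -0.69). In the same contrast 3 of 8 oligodendrocyte markers (median -0.74) and 2 of 3 endothelial markers (median -1.17) were lower with tau, 1 of 7 astrocyte markers was higher (Slc1a2, 3.07) and 1 lower, and 1 of 2 neuron markers was higher (Snap25, 3.21). The part of these cells in the differences was not tested. Rsad2 stood at 6418, 7195 and 6821 CPM with HT-DNA, a difference of -1.06 ± 0.23 (adjusted p = 5.87e-04), and Ifit3 at 2524, 2762 and 2739.7 CPM (-1.15 ± 0.18, adjusted p = 6.03e-06). Ifnb1 was at 3.86, 5.17 and 4.53 CPM with HT-DNA (-4.20 ± 0.57, adjusted p = 2.57e-06), far above the tau libraries. The CCR2 ligands were lower with tau, at differences of -1.61 for Ccl2, -1.45 for Ccl12 and -1.23 for Ccl7, and so was Klrk1, which encodes the activating receptor NKG2D, at -2.55. Tnf, at 97.5, 109 and 106 CPM with HT-DNA, differed by -0.17 (adjusted p = 0.169) and Cd40 by 0.16 (adjusted p = 0.322). HT-DNA was delivered with a transfection reagent in the study's reporter assays, and whether the microglia received one is not given in the sources used here, so agent and delivery cannot be told apart.

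**Figure D4:**
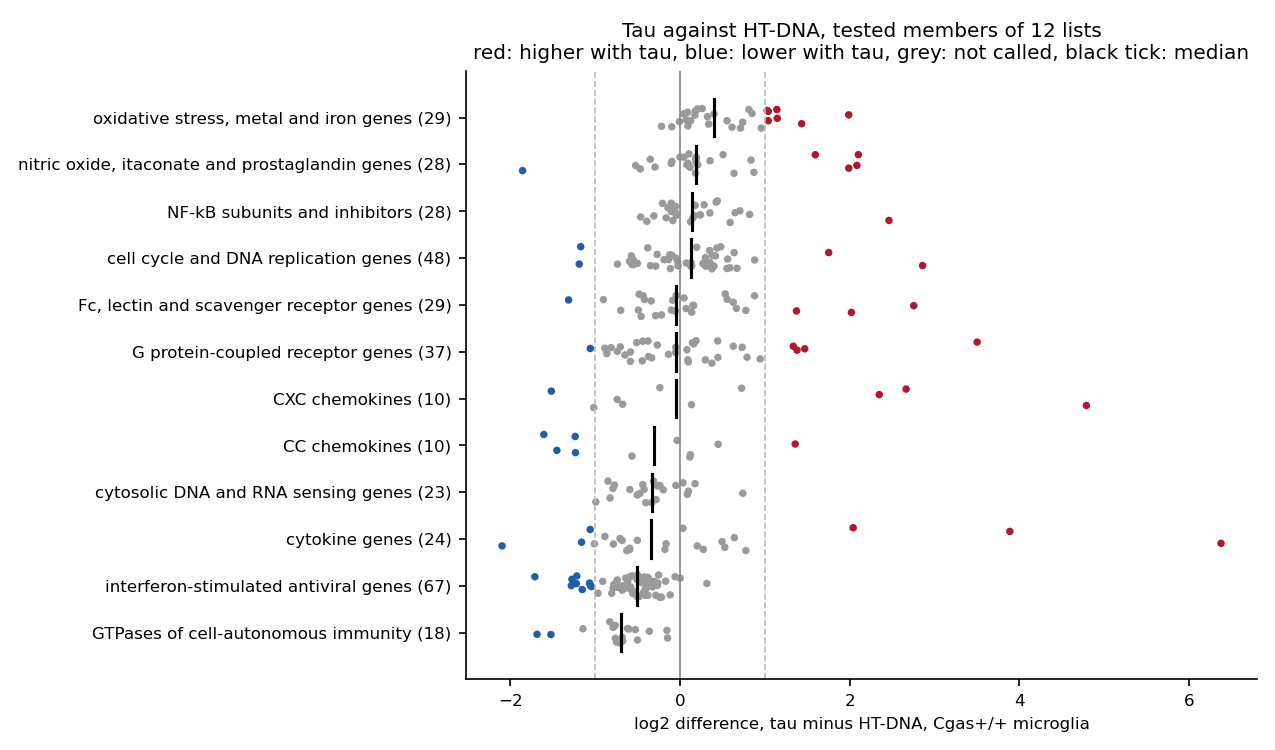
Log2 difference of tau minus HT-DNA in Cgas+/+ microglia (horizontal axis) for the tested members of 12 lists (rows, number of members in brackets), with members higher with tau in red, lower in blue, others in grey, a black tick at the median and dashed lines at 1 in either direction. The antiviral and GTPase lists sit left of 0 at medians of -0.51 and -0.69, and the oxidative stress list right of it at 0.40.

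Cgas-/- microglia also responded to tau, with 336 genes raised (2.46%) and 38 lowered (0.278%), the latter 21 without Cgas-/- vehicle replicate 1. The comparisons in the 2 genotypes share no library. They had 230 raised genes in common, which is 58.2% of those raised in Cgas+/+ cells and 68.5% of those raised in Cgas-/- cells, and 6 lowered genes (8.33% and 15.8%). The responses were compared by an interaction test, called at an adjusted p under 0.05 with no minimum size. Larger and smaller refer to the signed log2 response in Cgas-/- cells minus that in Cgas+/+ cells, so a weaker fall also counts as larger. By that sign the response was larger in Cgas-/- cells for 493 genes (3.61%) and smaller for 452 (3.31%). Without Cgas+/+ tau replicate 1 the first count was 318, and without Cgas+/+ tau replicate 3 the counts were 322 and 267. Of the genes lowered in Cgas+/+ cells, 9 counted as larger. Of the 395 genes raised in Cgas+/+ cells, 95 had a larger and 56 a smaller response in Cgas-/- cells. Genotype and the mice or cultures that supplied the cells cannot be told apart.

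Inflammatory lists held responses that differed in both directions. In Cgas-/- cells the response was smaller for 5 and larger for 2 of 24 cytokines, smaller for 3 and larger for 1 of 10 CC chemokines, and smaller for 2 and larger for 1 of 10 CXC chemokines. The larger ones included Ccl5 (difference 2.87) and Cxcl10 (2.36), and a larger log2 response is not a higher level. The summed CXC list in Cgas-/- cells was 356 to 373 CPM with vehicle and 474 to 534 CPM with tau. In Cgas+/+ cells it was 1124 to 1314 CPM with tau. The summed CC list with tau was higher in Cgas-/- cells, at 1792 to 1936 CPM, than in Cgas+/+ cells, at 1077 to 1281 CPM. With vehicle it stood at 514 to 623 CPM in Cgas+/+ cells and already at 1791 to 2017 CPM in Cgas-/- cells. The vehicle and tau libraries thus overlapped for this list in Cgas-/- cells. Il1b went from 1.17, 0.678 and 1.41 CPM to 13, 12.8 and 11.3 CPM there, a response smaller by a log2 of -1.69 ± 0.47 (adjusted p = 2.46e-02). Tnf went from 27.3, 33.2 and 33.7 CPM to 47.4, 48 and 57.1 CPM (difference -1.40 ± 0.15, adjusted p = 1.59e-07). Ccl3 showed no called rise in Cgas-/- cells, at 81.4, 80.9 and 87.6 CPM and then 105, 91.1 and 89.6 CPM (difference -1.40 ± 0.14), and neither did Socs3 (difference -1.56 ± 0.17). Cxcl2 (-1.94), Ptgs2 (-2.09) and Cd40 (-1.25) still rose in Cgas-/- cells but by less. For other raised genes the responses were not called different. The difference for Sod2 was 0.09 ± 0.08, for Slc7a11 0.04 ± 0.06, for Clec4e -0.02 ± 0.11 and for Cxcl3 0.40 ± 0.31 (SE). Il12b, with no read in any Cgas-/- vehicle library, reached 6.39, 5.82 and 6.18 CPM with tau there.

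Interferon-stimulated genes started from a lower level in Cgas-/- cells. Of the 67 antiviral genes 61 rose in Cgas-/- cells (median 2.64) and 56 had a larger response than in Cgas+/+ cells, none a smaller one. Rsad2 stood at 3.57, 8.81 and 6.16 CPM with vehicle and 435, 456 and 414 CPM with tau in Cgas-/- cells, so its log2 response was larger by 3.94 ± 0.40 (adjusted p = 7.72e-08), while the tau level there overlapped that of Cgas+/+ cells with vehicle (377 to 1067 CPM). Ifit3, at 1.23, 1.72 and 1.32 CPM and then 126, 101 and 106 CPM, had a response larger by 4.72 ± 0.39 and stayed below every Cgas+/+ vehicle library. The summed level of the antiviral list in Cgas-/- cells was 1405, 1517 and 1394 CPM with vehicle and 7616, 7345 and 7071 CPM with tau, the latter below the lowest Cgas+/+ vehicle library (8099 CPM). Among the 10 genes with the smallest interaction p, the differences were 4.52 for Rtp4, 4.10 for Oas3, 3.67 for Oasl2, 3.26 for Irf7, 2.53 for Oas1g, 2.40 for Ifi211, 2.31 for Slfn5, 1.79 for Trim30d, 1.58 for Trim30a and 1.21 for Irf9. In Cgas+/+ cells Irf9 was not called, at 90.6, 83.2 and 82.4 CPM and then 104, 101 and 100.1 CPM, whereas in Cgas-/- cells it rose from 28.7, 30.9 and 28.5 CPM to 83.2, 83.6 and 76 CPM.

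**Figure D5:**
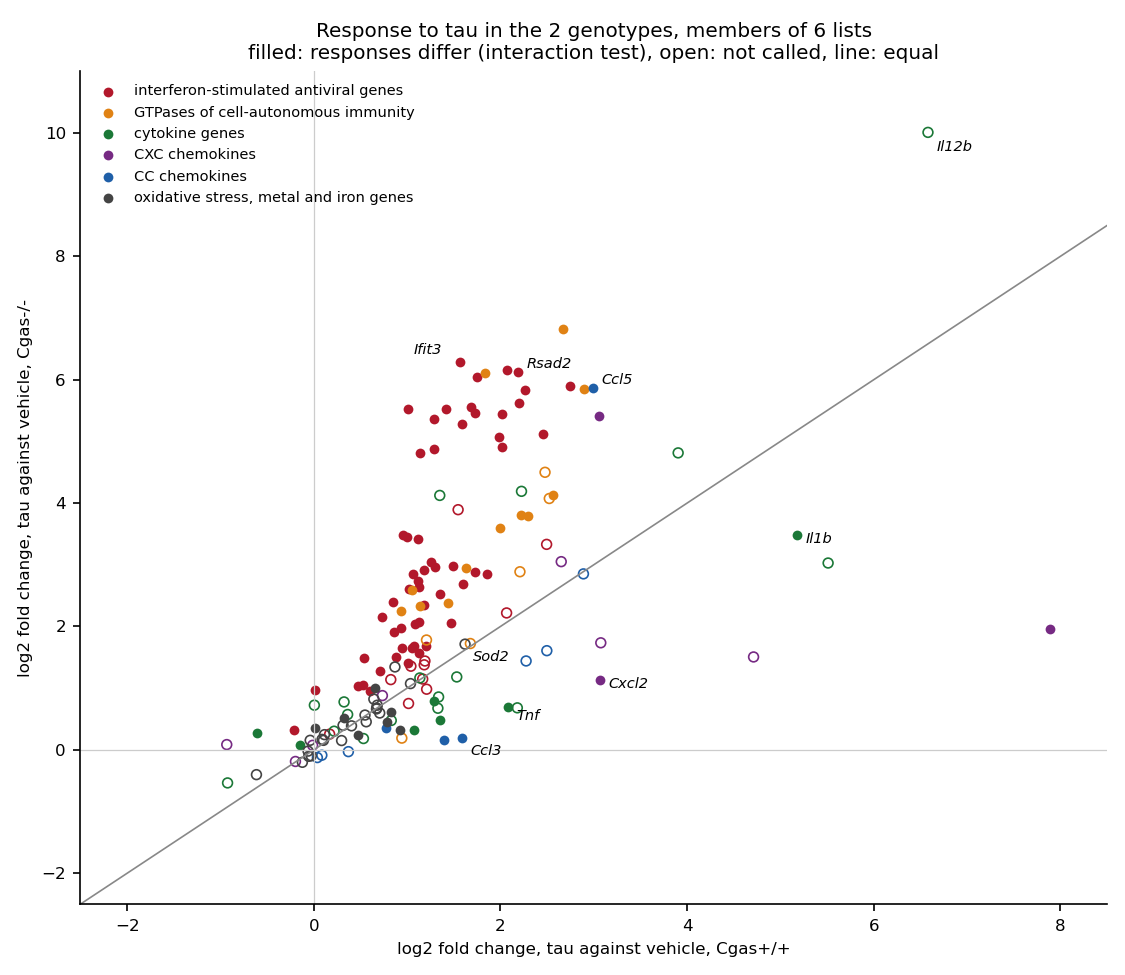
Log2 fold change of tau against vehicle in Cgas+/+ (horizontal axis) and Cgas-/- microglia (vertical axis) for the members of 6 lists (colours), filled where the interaction test was called, with the line of equal response. Most antiviral genes and GTPases lie above the line, Tnf, Ccl3 and Cxcl2 lie below it, and the fitted values of genes near 0 counts in a vehicle group, such as Il12b, are not bounds.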

How the data were processed

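RNA was measured in 18 libraries of primary mouse microglia, 3 for each of 6 groups, with the QuantSeq 3′ mRNA-Seq FWD kit, so reads come from transcript 3′ ends. The authors deposited raw read counts per gene (54532 genes). The submitters' processing notes name GRCm38, edgeR and limma, and the aligner, counter and annotation are not given in the sources used here. Genes were filtered with edgeR's filterByExpr, libraries were scaled by TMM, and 1 quasi-likelihood model over all 18 libraries was fitted (edgeR 4.0.16, R 4.3.3), with Benjamini-Hochberg adjustment over the 13675 genes left. Calls needed an adjusted p under 0.05 and, except for the interaction, a log2 fold change beyond 1. A gene with at most 3 counts in every library of a group was given a fold bound from 3 counts per library. The code was tested on simulated data. DESeq2 1.42.0, other scalings, filters and sample sets and each library left out were alternatives. Named genes were drawn from the 20 largest rises and falls with separate groups, up to 6 called and 4 uncalled members of each list, the 10 largest differences in each direction from HT-DNA, the 10 smallest interaction p-values, Cgas and Mapt. Not all of them are named, and those left out against HT-DNA were low in counts. Gene lists and members were chosen with earlier results of these data known. Standard errors come from the fitted model and use a spread estimated over all 18 libraries. They may understate the spread of uneven groups such as the Cgas+/+ vehicle libraries. Floors cover counting error only.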

Additional observations from a re-analysis of the deposited data

Results flagged for a closer look

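The response to tau differed between the genotypes by the interaction test (edgeR, adjusted p under 0.05). The signed log2 response was larger in Cgas-/- cells for 493 genes and smaller for 452, and a weaker fall counts as larger. Larger responses in Cgas-/- cells were found for Ifit3 (4.72), Rtp4 (4.52), Oas3 (4.10), Rsad2 (3.94), Oasl2 (3.67), Irf7 (3.26), Oas1g (2.53), Ifi211 (2.40), Slfn5 (2.31), Trim30d (1.79), Trim30a (1.58) and Irf9 (1.21), as log2 differences between the responses. A larger log2 response is not a higher level. The summed antiviral list in Cgas-/- cells started at 1394 to 1517 CPM with vehicle. With tau it reached 7071 to 7616 CPM, still below the lowest Cgas+/+ vehicle library (8099 CPM). Smaller responses were found for Ptgs2 (-2.09), Cxcl2 (-1.94), Il1b (-1.69), Socs3 (-1.56), Tnf (-1.40), Ccl3 (-1.40) and Cd40 (-1.25).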

How the results depend on the processing

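Without a minimum fold change, 2166 genes passed upward and 1663 downward with tau in Cgas+/+ cells. With 1 library left out, the counts for tau against vehicle ranged from 315 to 434 raised and 59 to 78 lowered, against HT-DNA from 210 to 264 higher and 178 to 229 lower, in Cgas-/- cells from 326 to 335 raised and 21 to 45 lowered, and for the interaction from 318 to 606 larger and 267 to 525 smaller. DESeq2 gave 392 raised and 64 lowered, and 494 larger and 608 smaller responses. Correlations of same-numbered libraries over all tested genes ran from -0.085 to 0.0823, the highest between vehicle and tau replicate 2 of Cgas+/+ cells. Such correlations cannot exclude pairing in the genes that respond. Replicate 2 was the lowest library for 58 of 67 antiviral genes with vehicle and for 63 with tau. Whether the replicate numbers pair the libraries is thus not known. The fit with a replicate block gave 393 raised and 69 lowered. A fit of the 2 compared groups with the block, chosen after seeing the data, gave 381 and 73. Ifnb1 changed direction without tau replicate 1 (-1.37) and without vehicle replicate 2 (-0.37), its log2 running from -1.37 to 1.65 (without vehicle replicate 1), and no called gene named here did so. Genes with few reads with vehicle have fitted folds that depend on the prior count, and 3 libraries a group limit the precision.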
